A study of Mus musculus with 8 samples.

Results

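The gap and tight junction genes described here are the gap junction connexins Gja1, Gjb2, Gjb5 and Gjb6 and the tight junction genes Cldn1, Cldn4, Ocln and Tjp1. They were taken by gene symbol from a table of 18770 genes, and 8 of 8 listed symbols were found. Positions are those of GENCODE M21 on build GRCm38, and no other listed gene overlapped them. RNA was sequenced from depilated back skin of wildtype male C57BL/6 mice, labelled 7 to 8 weeks old, to ask how the skin transcriptome differs after topical Alpinetin. The Alpinetin group (AP) received Alpinetin, a plant flavonoid, dissolved in ethanol once a day, and the vehicle group (VC) received the solvent. Skin was collected at D4 after depilation and the interfollicular epidermis was removed before extraction, so that the labels describe dermis with hair follicles. Each group had 4 libraries, numbered VC.1 up to VC.4 for vehicle and AP.1 up to AP.4 for Alpinetin, and values are given in that order. A figure legend of the study gives 4 mice per group for its heat map of these data. The library numbers do not match the mouse numbers in the labels, and p-values measure the spread between these libraries.

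Gap junctions are channels made of connexins that join the cytoplasm of neighbouring cells and pass ions and small molecules. Tight junctions seal the space between epithelial cells: claudins and occludin span the membrane, and scaffold proteins such as ZO-1, encoded by Tjp1, tie them to the actin cytoskeleton. In skin both kinds of junction are known from the epidermis and the hair follicle epithelium, where connexins change with keratinocyte differentiation and wounding and tight junctions form part of the barrier.

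The VC libraries held 6454563 to 7264151 reads and the AP libraries 8507783 to 11190113. Mitochondrially encoded genes took 48.4% ± 5.81 of reads in VC and 8.66% ± 2.63 in AP (SD, n = 4), and the groups did not overlap (two-sided exact permutation p = 0.0286, the smallest that 4 against 4 libraries allow). Without those genes the VC libraries held 3080758 to 3762217 reads and the AP libraries 7561598 to 10594787, so that counts were less precise in VC. The values used are normalized counts, which do not scale to the total. Under scaling to the total, the median log2 fold change of all tested genes moved from 0.06 to 0.90, and fold changes below are therefore read against the deposited scaling.

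The labelled removal of interfollicular epidermis was compared with marker lists. Calls in marker lists are by limma at an adjusted p under 0.05. Of all tested genes 6.33% were called higher and 4% lower. Suprabasal keratinocyte genes, which mark differentiating epidermis, were present in both groups and 13 of 19 were called higher in AP. Their normalized counts summed to 7167, 13857, 9878 and 6641 in the vehicle libraries and to 46484, 42946, 128306 and 177039 in the Alpinetin libraries. Krt10 was the most abundant of them, with a log2 fold change of 3.85 ± 0.50 (SE, limma adjusted p = 0.004). AP.3 and AP.4 thus held more of this RNA than AP.1 and AP.2, and the label does not separate these libraries from epidermal RNA. Of 9 basal keratinocyte genes 5 were called higher, and the most abundant, Krt14, had a log2 fold change of 1.02 ± 0.53 (SE, limma adjusted p = 0.212). In bulk tissue fewer cells of a type and less RNA per cell cannot be told apart.

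Other cell types also moved with the groups or with single libraries. Of 8 wound keratinocyte genes 4 were called higher, and their normalized counts summed to 6394, 8689, 8033 and 3776 in the vehicle libraries and to 6894, 18489, 37822 and 28684 in the Alpinetin libraries. AP.1 lay inside the VC range for this list. At an unadjusted p under 0.05 by limma, 17% of all tested genes were higher, and the share lower is not given here. Of 6 skeletal muscle genes 0 were called by limma and 4 had an unadjusted p under 0.05, and 6 had a fold change below 0. Their summed level was 31337 to 62422 normalized counts in VC, 63650 in AP.1 and 4684 to 10001 in the other AP libraries, so that AP.1 was near VC and the others were low. Of 7 endothelial genes 2 were called higher, and AP.2 had the highest summed level, 5847 normalized counts against 2222 to 2562 in the other AP libraries. The part of these cell types in the results below was not tested.

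Of the 8 junction genes, 3 were called higher in AP and 0 lower (limma, adjusted p under 0.05), beside 6.33% of 15964 tested genes called higher and 4% called lower. The 8 genes passed the filter on low values. Cldn1, Cldn4 and Tjp1 were called, and 0 of 4 connexins were. At an unadjusted p under 0.05 the count was 7 of 8, beside 17% of tested genes higher. With the cut-offs of the study's methods (p under 0.01, taken before adjustment, and over 1.5-fold), applied to limma values, it was 5 of 8, beside 8.26% higher. The study applied its cut-offs to DESeq2 values, with a minimum count of 3. The fold change was above 0 for 8 of 8, with a median log2 value of 1.18 beside 0.06 for all tested genes. The groups did not overlap for 3 of 8, Cldn4, Ocln and Tjp1, beside 10.3% of tested genes with AP above VC throughout, and 0 of 8 had AP below VC throughout, beside 8.91%.

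Tjp1 (ENSMUSG00000030516, chr7:65296165-65527781, minus strand) encodes ZO-1, the scaffold under the tight junction, and had the smallest standard error of the 8. Tjp1 stood at 289, 236, 258 and 249 normalized counts in the vehicle libraries and at 439, 717, 626 and 641 in the Alpinetin libraries. The lowest AP library, AP.1, was above the highest VC library. Tjp1 had a log2 fold change of 1.21 ± 0.18 (SE, 95% interval 0.82 to 1.60, limma adjusted p = 0.006). It was called under each of 22 alternative settings, with an adjusted p of 2.7e-07 to 0.029. The log2 fold change ran from 0.83 with the transcript length trend removed (limma adjusted p = 0.022) to 2.08 under scaling to the total. Tjp1 has the longest transcript of the 8 genes, 7049 bases. With a library left out its log2 fold change was 1.12 to 1.35.

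Cldn1 (ENSMUSG00000022512, chr16:26356642-26371841, minus strand) encodes claudin-1, a sealing claudin that the epidermal barrier requires. Cldn1 stood at 364, 693, 423 and 229 normalized counts in the vehicle libraries and at 672, 721, 1276 and 968 in the Alpinetin libraries. VC.2 lay inside the AP range and VC.4 was lowest, so the groups overlapped. Cldn1 had a log2 fold change of 1.15 ± 0.31 (SE, 95% interval 0.47 to 1.83, limma adjusted p = 0.039). The call was lost when VC.1, VC.3, VC.4, AP.2, AP.3 or AP.4 was left out, with an adjusted p of 0.060 to 0.118. In those fits the log2 fold change was 0.89 to 1.25. The call was also lost without the intensity trend and with the transcript length trend removed, at log2 fold changes of 1.15 and 0.996.

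Cldn4 (ENSMUSG00000047501, chr5:134945119-134946934, minus strand) encodes claudin-4, found in the upper living layers of the epidermis. Cldn4 stood at 107, 78.3, 65.5 and 67.5 normalized counts in the vehicle libraries and at 115, 140, 312 and 230 in the Alpinetin libraries. AP.1 was close above VC.1, and AP.3 and AP.4 were highest. Cldn4 had a log2 fold change of 1.23 ± 0.32 (SE, 95% interval 0.53 to 1.93, limma adjusted p = 0.035). The call was lost when VC.2, VC.3, VC.4, AP.2, AP.3 or AP.4 was left out, with an adjusted p of 0.057 to 0.115, and also without the intensity trend. The log2 fold change was 0.98 to 1.36 in those fits with a library left out, and 1.23 without the intensity trend.

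Ocln (ENSMUSG00000021638, chr13:100496507-100552718, minus strand) encodes occludin, a membrane protein of the tight junction strand. Ocln stood at 41.8, 25.1, 28.7 and 24.4 normalized counts in the vehicle libraries and at 50.8, 53.9, 94.7 and 71.5 in the Alpinetin libraries. VC.1 was the highest VC library and lay below AP.1. The VC values rest on 23, 17, 21 and 13 reads, so the gap between VC.1 and AP.1 rests on few reads. Ocln had a log2 fold change of 1.14 ± 0.33 (SE, 95% interval 0.41 to 1.86, limma adjusted p = 0.051), short of the threshold. Left without VC.1 it was called, at an adjusted p of 0.043, and over 22 alternative settings it was called under 9.

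**Figure D1:**
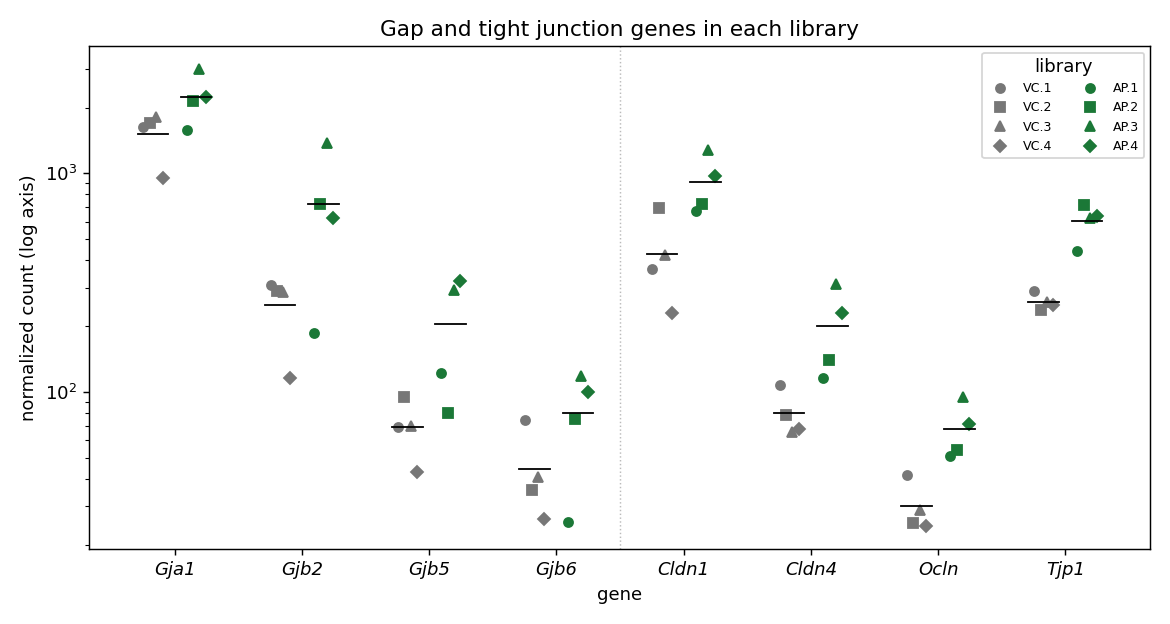
Normalized counts (log axis) of each gap and tight junction gene (horizontal axis) in 4 VC libraries (grey) and 4 AP libraries (green), with 1 symbol per library and the group mean as a black line. For Cldn4, Ocln and Tjp1 the AP points lie above the VC points, and for Gjb2 and Gjb6 AP.1 lies among or below the VC points.

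Gja1 (ENSMUSG00000050953, chr10:56377330-56402513, plus strand) encodes connexin 43, the widespread connexin of skin, and was the connexin with the highest level per kilobase of transcript in both groups. Gja1 stood at 1632, 1691, 1806 and 949 normalized counts in the vehicle libraries and at 1582, 2151, 2996 and 2239 in the Alpinetin libraries. AP.1 lay inside the VC range, and VC.4 was lowest. Gja1 had a log2 fold change of 0.57 ± 0.24 (SE, 95% interval 0.04 to 1.10, limma adjusted p = 0.140). With a library left out it was 0.36 (without VC.4, adjusted p = 0.281) to 0.72 (without AP.1, 0.075).

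Gjb2 (ENSMUSG00000046352, chr14:57098600-57104702, minus strand) encodes connexin 26, which is known to be raised in wounded and thickened epidermis. Gjb2 stood at 309, 288, 287 and 116 normalized counts in the vehicle libraries and at 186, 727, 1370 and 622 in the Alpinetin libraries. AP.1 lay below 3 of 4 VC libraries, while the other AP libraries were above the VC range. Gjb2 had a log2 fold change of 1.32 ± 0.51 (SE, 95% interval 0.19 to 2.44, limma adjusted p = 0.113). Left without AP.1 it was 1.86, and called at an adjusted p of 0.012, while without AP.3 it was 0.91 (adjusted p = 0.284) and without VC.4 it was 0.98 (0.229).

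Gjb6 (ENSMUSG00000040055, chr14:57123303-57133611, minus strand) encodes connexin 30, and lies near Gjb2 on chromosome 14. Gjb6 stood at 74.6, 35.5, 41.0 and 26.3 normalized counts in the vehicle libraries and at 25.4, 74.9, 119 and 100 in the Alpinetin libraries. AP.1 was the lowest of the 8 libraries, AP.2 was level with VC.1, and AP.3 and AP.4 were above the VC range. Gjb6 had a log2 fold change of 0.74 ± 0.49 (SE, limma adjusted p = 0.333), and its 95% interval, -0.33 to 1.80, included 0. Without AP.1 it was 1.21, at an adjusted p of 0.069, while without AP.3 it was 0.48 (adjusted p = 0.624) and without VC.4 it was 0.53 (0.517).

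Gjb5 (ENSMUSG00000042357, chr4:127354809-127358181, minus strand) encodes connexin 31.1, a connexin of differentiating keratinocytes, and showed another order of libraries. Gjb5 stood at 69.1, 94.6, 69.6 and 43.1 normalized counts in the vehicle libraries and at 123, 80.3, 294 and 322 in the Alpinetin libraries. Here AP.2 lay inside the VC range, and AP.3 and AP.4 were highest. Gjb5 had a log2 fold change of 1.38 ± 0.43 (SE, 95% interval 0.43 to 2.32, limma adjusted p = 0.061). Without AP.2 it was 1.75, and called at an adjusted p of 0.039, while without AP.4 it was 1.09 (adjusted p = 0.165) and without AP.3 it was 1.13 (0.178).

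The connexin result depended on the test. By limma 0 of 4 connexins were called and 3 of 4 had an unadjusted p under 0.05, beside 17% of tested genes higher. On the recovered reads, edgeR's quasi-likelihood test called 1 of 4 connexins, Gjb5, and DESeq2 called 2 of 4, Gjb2 and Gjb5, and each called 4 of 4 tight junction genes. Of all tested genes edgeR called 6.28% higher and DESeq2 10.5%, so that DESeq2 called more genes than limma. A call in one family and not in the other is not a difference between them.

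**Figure D2:**
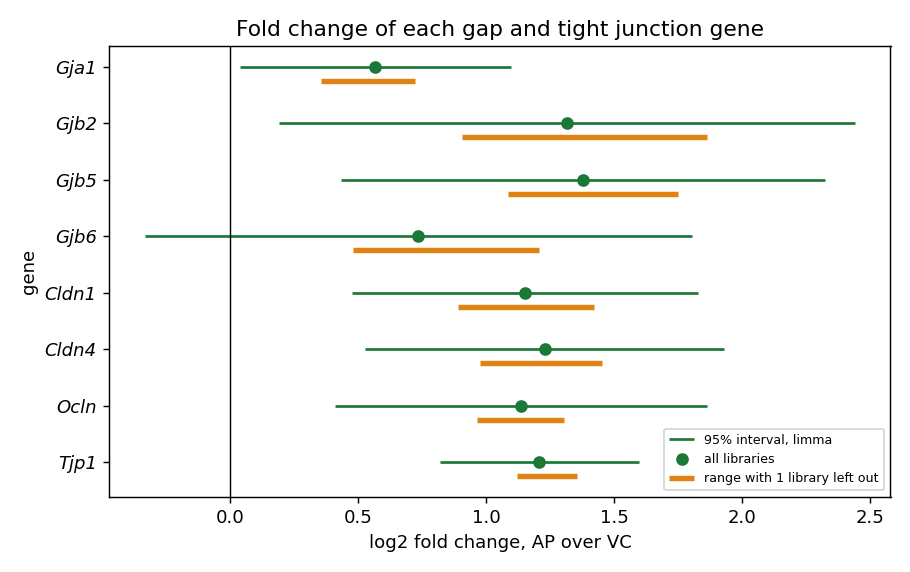
Log2 fold change of AP over VC (horizontal axis) of each gap and tight junction gene, as the value with 4 libraries per group (green point), its 95% limma interval (green line) and the range of values with 1 library left out (orange line). The points lie between 0.57 and 1.38, and the interval of Gjb6 includes 0.

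Whether members of a family changed by different amounts was tested for 12 pairs, 6 of connexins and 6 of tight junction genes. By a two-sided exact permutation test 0 pairs differed at an adjusted p under 0.05, or at an unadjusted p under 0.05, and the smallest p was 0.143. Cldn1 minus Ocln was 3.71 ± 0.76 on the log2 scale in VC and 3.72 ± 0.02 in AP (SD, n = 4). The AP libraries were close together in this ratio of normalized counts, although both genes varied between them. Ocln had 70, 100, 190 and 100 reads in the AP libraries, so counting noise enters the ratio. This pair had the smallest SD in AP of the 12 pairs, and its closeness was not tested.

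Shares within each family were set on normalized counts per kilobase of the longest transcript. Gja1 made up 43.5% ± 3.47 of the summed level of 14 connexins in VC and 34.8% ± 5.77 in AP (SD, n = 4, two-sided exact permutation p = 0.0571, adjusted p = 0.343). Gjb2 made up 11.2% ± 1.79 in VC and 16.2% ± 7.36 in AP (SD, n = 4, exact permutation adjusted p = 0.377), and its share in AP.1 was 7.90%, below each VC library. Among 18 claudins Cldn1 made up 22.1% ± 7.94 in VC and 28.5% ± 6.17 in AP (SD, n = 4, exact permutation adjusted p = 0.377). Of 6 shares tested 0 differed at an adjusted or unadjusted p under 0.05.

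Each gene was also set against the mean log2 level of the keratinocyte lists. Against the basal list, the difference between AP and VC was -0.11 for Tjp1, -0.17 for Cldn1, -0.09 for Cldn4 and -0.18 for Ocln, and -0.75 for Gja1, -0.0019 for Gjb2, 0.061 for Gjb5 and -0.58 for Gjb6. The groups overlapped for each of the 8 (two-sided exact permutation adjusted p = 0.196 to 1). Relative to basal keratinocyte genes the tight junction genes thus differed by less than the spread between libraries. The sign turned without VC.1 for Cldn4 (0.20), Ocln (0.13) and Tjp1 (0.09), without VC.4 for Cldn4 (0.09) and Tjp1 (0.13), and without AP.4 for Tjp1 (0.03), and it also turned with libraries left out for Gjb2 (-0.28 to 0.40) and Gjb5 (-0.062 to 0.28). For Gjb6 the difference was -0.16 without VC.1 and -0.26 without AP.1. Against the suprabasal list, the difference was below 0 for 8 of 8: -2.06 for Gja1, -1.31 for Gjb2, -1.25 for Gjb5, -1.89 for Gjb6, -1.48 for Cldn1, -1.40 for Cldn4, -1.49 for Ocln and -1.42 for Tjp1 (two-sided exact permutation adjusted p = 0.196 to 0.254). The suprabasal list itself rose, with a median log2 fold change of 2.89 beside 0.06 for all tested genes. Any gene that rose by less than the mean of the list falls below 0, so this sign is not particular to the 8 genes. For Gja1 and Gjb5 the groups did not overlap (unadjusted p = 0.0286). These were the 2 of 16 tests with an unadjusted p under 0.05, and 0 passed after adjustment. As 0.0286 is the smallest p possible, 2 such tests alone could not pass over 16.

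Other junction genes were taken from 8 lists, of which 66 of 71 genes in the table passed the filter. Of these 66 genes 54 had a fold change above 0, beside 53.5% of all tested genes, and the median log2 fold change was 0.57, beside 0.06. Not all genes of these lists are named here. Among the connexins outside the 8 genes, Gja4 had a log2 fold change of 0.54 ± 0.36 (SE) and was not called.

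Beside 6.33% of all tested genes called higher, 1 of 13 tested claudins outside the 8 genes was called, Cldn23. It had 6, 0, 2 and 0 reads in the vehicle libraries and 30, 34, 170 and 67 in the Alpinetin libraries. Its fitted log2 fold change of 3.84 ± 0.86 (SE, limma adjusted p = 0.023) depends on the pseudocount, since VC.2 and VC.4 were at 0. Cldn5, the endothelial claudin, had the highest level per kilobase of the claudins, and its log2 fold change was 0.85 ± 0.29 (SE, limma adjusted p = 0.078). Cldn10 and Cldn12 followed outside the 8 genes, at -0.49 ± 0.40 and 0.53 ± 0.30, and were not called.

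Among scaffold genes, Amotl2 was called higher at 0.67 ± 0.17 (log2, SE, limma adjusted p = 0.035). Cgnl1, which encodes paracingulin, was called lower at -0.77 ± 0.20 (log2, SE, limma adjusted p = 0.035). Under scaling to the total it was 0.10, below the median of 0.90 there. The leading scaffold genes per kilobase beside Amotl2, Ybx3 (-0.05 ± 0.20) and Amotl1 (0.10 ± 0.16), were not called.

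Among 5 genes of the junctional adhesion molecule family 1 was called, Jam2, at 1.45 ± 0.37 (log2, SE, limma adjusted p = 0.034). Of all tested genes 6.33% were called higher. Jam2 stood at 63.7, 97.5, 111 and 180 normalized counts in the vehicle libraries and at 259, 591, 206 and 225 in the Alpinetin libraries. AP.2, the library with the highest endothelial sum, was highest, and the groups did not overlap. F11r (0.40 ± 0.18), Esam (0.96 ± 0.37) and Cxadr (0.95 ± 0.30) led the family per kilobase and were not called.

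Polarity genes with a call were Pard3, at 0.96 ± 0.22 (log2, SE, limma adjusted p = 0.024), and Pard6g, at 0.99 ± 0.26 (adjusted p = 0.039), of 7 tested. Of all tested genes 6.33% were called higher. Prkci (0.58 ± 0.21) and Crb3 (0.37 ± 0.39) were not called. Of 11 adherens junction genes 4 were called higher, beside the same 6.33% of all tested genes. They were Cdh1, which encodes E-cadherin, at 1.20 ± 0.26 (limma adjusted p = 0.021), Nectin1 at 1.26 ± 0.30 (0.028), Nectin4 at 1.11 ± 0.31 (0.044) and Vcl, which encodes vinculin, at 1.52 ± 0.22 (0.006). Ctnna1 (0.36 ± 0.14) and Lima1 (0.27 ± 0.14) were not called. Of 5 genes of tricellular junctions and 2 pannexins 0 were called by limma, and 0 had an unadjusted p under 0.05. Lsr (0.47 ± 0.30), Marveld3 (1.31 ± 0.85) and Marveld2 (0.77 ± 0.42) led the first list per kilobase, and Panx3 (-0.39 ± 0.50) and Panx1 (0.27 ± 0.28) the second. Of the calls named here among these other junction genes, Vcl alone held with each library left out. The others named were lost when AP.3 or AP.4 was left out, and without the intensity trend, and some were lost more widely: Amotl2 and Nectin4 in 7 of 8 cases with a library left out, and Jam2 in 6.

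The genes nearest to each of the 8, after the group mean was taken from each log2 value, were described over 8 libraries without a test. Among 11082 genes, those nearest to Gjb5 were Pou2f3 (Pearson r = 0.987) and Chl1 (0.986), and those nearest to Gjb2 were Dhx8 (0.990) and Slc39a10 (0.977). Nearest to Gja1 were Gpld1 (0.987) and Rhbdf2 (0.986), and nearest to Gjb6 Dclre1c (0.970) and Nfe2l3 (0.961). Nearest to Cldn1 were Taf2 (0.988) and Etv4 (0.982), to Cldn4 Elp2 (0.975) and Fam167a (0.973), to Ocln Rab15 (0.978) and Tpx2 (0.977), and to Tjp1 Togaram1 (0.931) and Wnk1 (0.913). The 8 points share library depth and tissue makeup, and so many genes searched over 8 libraries give high values readily. Over the pairs of the 8 genes the same measure ran from 0.0473 (Gjb5 with Tjp1) to 0.92 (Gja1 with Gjb2).

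The marker lists were nearest to different members by this measure. Gjb5 followed the suprabasal list (0.957), Cldn1 the basal list (0.909), and Gja1 and Gjb2 the inner root sheath and matrix list (0.907 and 0.885), whose genes belong to the growing hair follicle. Tjp1 was at 0.03 with the basal, -0.08 with the suprabasal, 0.628 with the inner root sheath and matrix and 0.511 with the wound keratinocyte list. The value of Tjp1 furthest from 0 was -0.848, with the skeletal muscle list. With the skeletal muscle list and with the fibroblast list the measure was below 0 for 8 of 8, and with the endothelial list for 7 of 8.

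The promoters of the 8 genes, 250 bases before to 50 after each start, were taken from RefSeq on build GRCm38.p6, with more than 1 start for Ocln. The start used for Tjp1 lies inside the gene span given above and not at its outer end. They were searched on both strands for TGANTCA (AP-1), AACCNGTT (grainyhead-like), GGGTG (Kruppel-like) and TATAAA, which are found in 7.81%, 2.09%, 57.5% and 13.6% of 32851 promoters of that length. TGANTCA was found in Cldn4, at 2 positions, and in Gja1, and AACCNGTT in Gjb6. GGGTG was found in Cldn4, Tjp1, Ocln, Gjb2, Gjb5 and Gjb6, and TATAAA in Gjb5. The promoters of the called genes and of Gja1 are shown for their differing content, with matches to TGANTCA in capitals.
Cldn1, chr16:26371790-26372089, minus strand: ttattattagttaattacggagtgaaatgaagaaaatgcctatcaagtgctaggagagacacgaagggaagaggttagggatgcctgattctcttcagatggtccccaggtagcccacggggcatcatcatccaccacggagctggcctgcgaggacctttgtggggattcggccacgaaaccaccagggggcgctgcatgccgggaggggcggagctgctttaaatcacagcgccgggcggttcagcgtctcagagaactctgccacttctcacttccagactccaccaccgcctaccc
Cldn4, chr5:134946885-134947184, minus strand: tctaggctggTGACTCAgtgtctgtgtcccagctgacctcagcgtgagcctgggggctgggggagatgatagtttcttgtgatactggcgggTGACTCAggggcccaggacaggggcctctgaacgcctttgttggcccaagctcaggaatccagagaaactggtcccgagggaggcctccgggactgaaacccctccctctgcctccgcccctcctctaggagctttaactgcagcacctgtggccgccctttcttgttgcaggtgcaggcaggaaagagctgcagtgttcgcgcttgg
Tjp1, chr7:65371195-65371494, minus strand: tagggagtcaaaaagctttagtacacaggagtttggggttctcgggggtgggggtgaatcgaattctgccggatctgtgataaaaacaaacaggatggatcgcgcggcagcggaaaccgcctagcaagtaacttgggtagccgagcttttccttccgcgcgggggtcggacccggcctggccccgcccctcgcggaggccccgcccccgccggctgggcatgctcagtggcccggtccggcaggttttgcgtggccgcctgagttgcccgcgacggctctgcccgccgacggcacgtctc
Gja1, chr10:56377050-56377349, plus strand: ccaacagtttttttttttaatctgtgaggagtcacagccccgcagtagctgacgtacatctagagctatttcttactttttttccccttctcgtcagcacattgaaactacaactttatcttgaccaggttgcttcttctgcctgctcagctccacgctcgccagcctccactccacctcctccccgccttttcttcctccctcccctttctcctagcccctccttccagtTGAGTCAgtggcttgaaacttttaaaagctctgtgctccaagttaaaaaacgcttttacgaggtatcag
No motif of the 4 was found in each of the called genes in this window, and Cldn1 had none of them. A match is a description and not evidence that a factor binds there.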

How the data were processed

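Gene-level values were deposited by the authors as normalized counts, a signal in which each library has its own scale. Per the study's methods, mRNA was enriched with oligo-dT beads and reads were aligned to mm10 with STAR. The submitters' processing notes name HTSeq as the counter and the methods name another, and the deposited values do not show which was used. The notes and the methods also name DESeq2, whose normalized counts are whole reads over a size factor. Columns with the authors' mean, log2 fold change, standard error, test statistic and p-values were not used.

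Each deposited value of up to 1000 reads was a whole multiple of 1 step per library, within 0.01 reads, for 100% of 128721 values, which gave the reads. No 2 libraries of a group agreed within sampling noise. A gene entered the test if 4 or more libraries had 3 or more normalized counts, and testing was done with limma 3.58.1 in R 4.3.3, with an intensity trend on log2(normalized count + 1), 4 AP against 4 VC libraries, and Benjamini-Hochberg adjustment over 15964 genes. Fold changes are on that scale, which understates those of low genes. On the recovered reads edgeR 4.0.16 called 1003 genes higher and 712 lower, and DESeq2 1.42.0 called 1677 and 1362. The code was tested on simulated data. Single values used two-sided exact permutation tests over 70 assignments. Levels per kilobase used the longest transcript in GENCODE M21. Less than 1% of the 50-base words of each of the 8 genes occurred in another gene.

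The text names the 8 genes, in other junction lists genes that were called or among the 3 most abundant per kilobase, though not all of them, in cell type lists the most abundant gene, and for each of the 8 the 2 nearest genes with a mean of at least 50. Lists and members were chosen with earlier results of these data known. Alternatives covered tests, pseudocounts, filters, scalings, thresholds and leaving out each library.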

Additional observations from a re-analysis of the deposited data

Results flagged for a closer look

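In 54 groups of 4 libraries checked, 4 held a library far from the other libraries of its group, and chance gives about 1 in 20. Gjb2 in VC was lowest in VC.4, at 116 normalized counts. Nectin1 in VC was also lowest in VC.4, at 176. Jam2 in AP was highest in AP.2, at 591. The share of Gjb6 among connexins in AP was lowest in AP.1, at 1.23%.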

How the results depend on the processing

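No paired analysis was possible because the mouse numbers in the labels are not shared between the groups. The 8 genes kept a fold change above 0 under each setting, and called members were 3, with 1 to 4 when 1 library was left out, 5 by edgeR, 6 by DESeq2, 8 under total counts, 1 without the intensity trend, 5 at adjusted p under 0.1 and 1 at 0.01. Genes called higher were 1011, and lower 639. They were 1677 and 1362 by DESeq2, 8657 and 70 under total counts, 376 and 216 without the intensity trend, 1917 and 1381 at 0.1, 104 and 36 at 0.01, and 209 to 1082 and 94 to 817 with 1 library left out. With the transcript length trend removed 580 were called higher. Upper-quartile scaling called 890 higher and 892 lower. The cut-offs of the methods, applied to limma and not to DESeq2 values, called 2169 genes, 6950 under total counts and 1352 to 2337 with 1 library left out. Of the shares, pairs and relative levels 0 passed under any setting. With 4 against 4 libraries the smallest possible p is 0.0286, so that 1 difference alone could not pass after adjustment. Leaving out a library for pairs and for the mitochondrial share was added after the data were seen. Directions that turned were those of Cgnl1 (0.10 under total counts, a scaling that moved the median of all genes to 0.90), Cldn4 minus Tjp1 (-0.0057 with pseudocount 5) and, over the libraries left out, the share of Gjb6 (-0.554 to 0.150), the pairs Cldn4 minus Tjp1 (-0.21 to 0.24), Gjb2 minus Gjb5 (-0.54 to 0.31), Cldn1 minus Ocln (-0.19 to 0.35), Ocln minus Tjp1 (-0.22 to 0.11), Cldn1 minus Cldn4 (-0.27 to 0.19) and Cldn1 minus Tjp1 (-0.30 to 0.25), and, relative to basal keratinocyte genes, Gjb2 (-0.28 to 0.40), Cldn4 (-0.34 to 0.20), Ocln (-0.50 to 0.13), Tjp1 (-0.40 to 0.13) and Gjb5 (-0.062 to 0.28). The cause was not tested.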

Other observations

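The marker lists not described beside the junction genes gave these counts by limma at an adjusted p under 0.05. Of all tested genes 6.33% were called higher and 4% lower. Of 5 melanocyte genes 3 were lower in AP (most abundant gene Dct), and of 4 Schwann cell genes 2 were lower (Mbp). Of 6 smooth muscle and pericyte genes 2 were higher (Acta2), of 9 inner root sheath and matrix genes 1 was higher (Krt71 most abundant), and of 5 red blood cell genes 1 was higher (Hbb-bs). Of 9 outer root sheath and bulge genes (Cd34), 7 fibroblast genes (Col1a1), 5 adipocyte genes (Fabp4), 7 sebaceous gland genes (Soat1), 7 leukocyte genes (Cd74) and 3 tested simple epithelium genes (Epcam) 0 were called, with 2, 2, 1, 0, 3 and 0 at an unadjusted p under 0.05. Those unadjusted counts take both directions. At that cut-off 17% of all tested genes were higher by limma, and the share lower is not given here. Of the simple epithelium genes, Krt8 and Krt18 were at 0 in most VC libraries.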
